A study of Homo sapiens with 12 samples.

Results

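H3K4me3, trimethylation of lysine 4 of histone H3, was mapped by chromatin immunoprecipitation followed by sequencing in KBM-7. These human cells were established from a blast crisis of chronic myeloid leukaemia and carry a single copy of most chromosomes. The regions described here are the H3K4me3 regions that lie away from the annotated ends of genes. They were chosen by measured values: overlapping or adjacent H3K4me3 intervals were joined, and a region was kept when it was under 3000 bp wide, lay farther than 2 kb from either end of any annotated gene of any biotype, and did not overlap H3K27me3. Of 14803 H3K4me3 regions on chromosomes 1 to 22 and X, 3051 lay far enough from gene ends, 3019 of those were narrow enough, and 138 of those were left out for H3K27me3. The remaining 2881 regions are the members, of which 2688 (93.3%) lay inside a gene span and 193 between genes. All 2688 lay wholly inside a gene, and 2621 of them had a protein-coding host.

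The series holds 9 immunoprecipitated libraries, 1 for each histone mark, and 3 inputs, with no treatment or genotype named other than the line, which was grown in IMDM with fetal calf serum. By the sample titles, H3K4me3, H3K9ac and H3K79me2 share 1 input, the other marks except H3K27me3 share another, and H3K27me3 has its own. With 1 library per mark there is no replicate error, no test was possible, and every comparison below describes these libraries. The deposited data are called intervals with no count or score and give no sequencing depth, which is unknown here. Under the names H3K36me3 and H4K16ac stand the same 45639 intervals on these chromosomes, and the file cannot tell which library they came from. They are treated as 1 set, called H3K36me3/H4K16ac.

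As background, H3K4me3 is deposited by COMPASS-family methyltransferases around active and CpG-rich transcription starts, where it is usually joined by H3K9ac and H3K27ac. H3K4me1 and H3K4me2 extend farther out and also mark enhancers. H3K79me2 is laid down by DOT1L over the 5′ part of transcribed genes and H3K36me3 by SETD2 over the later part, while H3K27me3 is the mark of Polycomb complexes. Many genes have further starts inside their span, and these give transcripts with shorter or different 5′ ends.

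Some members lay at such internal starts, and the sequences there can be shown. The RefSeq promoter table for GRCh38.p14 lists 34961 starts on these chromosomes, each with 250 bases before and 50 after the start. Of these, 4242 starts in 2932 genes lay farther than 2 kb from any gene end. H3K4me3 overlapped 10987 of all listed windows (31.4%) and 621 of these internal ones (14.6%). A member overlapped 517 of those 621 windows, in 419 genes. Counted by region, 431 of the 2688 members inside genes (16.03%, Wilson 95% interval 14.7 to 17.5) overlapped a listed window. Wilson intervals here and below cover counting error only, and members that share a host gene are not independent.

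The 6 sequences below are the 200 bases before an internal start that lies in a member, read 5′ to 3′ on the gene's strand, with each CG dinucleotide in capitals. They were picked from genes that the lists and the count of members per gene name, to show the range from many CG dinucleotides to few. STAT5B encodes a transcription factor that BCR-ABL1 activates, KDM2B a CpG-island-binding demethylase, RARA the retinoic acid receptor alpha, MSN the membrane-cytoskeleton linker moesin, SEPTIN9 a septin filament protein and PDE4B a cAMP phosphodiesterase. From STAT5B to PDE4B, they are chr17:42276392-42276591 (minus strand), chr12:121467379-121467578 (minus), chr17:40318045-40318244 (plus), chrX:65667454-65667653 (plus), chr17:77319318-77319517 (plus) and chr1:66331908-66332107 (plus).
STAT5B: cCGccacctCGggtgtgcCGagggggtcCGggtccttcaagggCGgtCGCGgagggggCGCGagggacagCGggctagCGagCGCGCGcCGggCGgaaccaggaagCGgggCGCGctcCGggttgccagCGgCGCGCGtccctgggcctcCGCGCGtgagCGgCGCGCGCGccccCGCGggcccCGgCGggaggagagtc
KDM2B: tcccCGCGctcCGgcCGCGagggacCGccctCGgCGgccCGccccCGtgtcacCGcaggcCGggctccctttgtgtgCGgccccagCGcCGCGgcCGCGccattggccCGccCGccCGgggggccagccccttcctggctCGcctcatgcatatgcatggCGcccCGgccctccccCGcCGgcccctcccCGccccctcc
RARA: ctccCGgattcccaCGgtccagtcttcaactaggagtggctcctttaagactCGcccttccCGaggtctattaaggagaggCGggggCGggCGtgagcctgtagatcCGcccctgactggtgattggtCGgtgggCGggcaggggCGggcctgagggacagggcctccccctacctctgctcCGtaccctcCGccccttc
MSN: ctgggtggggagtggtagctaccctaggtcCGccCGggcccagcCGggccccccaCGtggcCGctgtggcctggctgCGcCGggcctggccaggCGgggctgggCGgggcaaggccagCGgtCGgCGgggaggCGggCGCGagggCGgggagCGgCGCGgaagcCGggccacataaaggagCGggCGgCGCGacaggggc
SEPTIN9: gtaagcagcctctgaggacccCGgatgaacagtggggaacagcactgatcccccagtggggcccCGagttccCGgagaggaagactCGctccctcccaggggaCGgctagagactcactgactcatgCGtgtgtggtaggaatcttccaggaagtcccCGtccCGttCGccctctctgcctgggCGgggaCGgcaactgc
PDE4B: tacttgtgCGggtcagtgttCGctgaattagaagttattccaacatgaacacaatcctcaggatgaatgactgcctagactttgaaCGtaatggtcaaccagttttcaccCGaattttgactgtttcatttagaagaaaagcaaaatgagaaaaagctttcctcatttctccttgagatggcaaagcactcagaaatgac

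Over their whole 300-base windows, these starts held 55 CG dinucleotides in STAT5B, 46 in KDM2B, 29 in MSN, 19 in RARA, 12 in SEPTIN9 and 4 in PDE4B. The start lay 11.98 kb from the outer 5′ end of STAT5B and 115 kb from that of KDM2B. In RARA, MSN, SEPTIN9 and PDE4B the distances were 9.06, 79.3, 38.0 and 540 kb. For the 5 starts other than that of STAT5B, the H3K4me3 region covered only the last part of the sequence shown and reached past the start. The member held 200 of the 200 bases in STAT5B, 157 in PDE4B, 72 in KDM2B, 67 in SEPTIN9, 53 in MSN and 44 in RARA.

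For contrast, 2 internal starts without H3K4me3 follow, printed in the same way and picked after their values were seen. One lies 91.8 kb into SEPTIN9, at chr17:77373137-77373336 (plus), and has 32 CG dinucleotides in its 300 bases. The other lies 58.0 kb into RBPJ, the DNA-binding factor of Notch signalling, at chr4:26163258-26163457 (plus), and has 0.
SEPTIN9 without H3K4me3: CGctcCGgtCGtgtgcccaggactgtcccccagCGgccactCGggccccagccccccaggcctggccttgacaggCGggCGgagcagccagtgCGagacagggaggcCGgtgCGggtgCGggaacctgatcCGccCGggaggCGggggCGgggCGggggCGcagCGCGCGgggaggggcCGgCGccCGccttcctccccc
RBPJ without H3K4me3: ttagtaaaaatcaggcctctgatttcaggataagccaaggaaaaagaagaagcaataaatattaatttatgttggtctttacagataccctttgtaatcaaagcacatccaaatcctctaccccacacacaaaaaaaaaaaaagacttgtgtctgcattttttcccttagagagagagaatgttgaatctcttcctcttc

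Across all listed starts, the windows in members resembled those at marked gene ends in base composition. The 517 internal windows that overlapped a member had a median of 30 CG dinucleotides (quartiles 21 and 37) and 69.7% G or C. The 10366 windows near gene ends with H3K4me3 had a median of 29 (quartiles 22 and 36) and 67.3% G or C. The 3621 internal windows without H3K4me3 had a median of 5 (quartiles 2 and 10) and 49.7% G or C. At least 10 CG dinucleotides were present in 92.8% of the windows in members, 96.6% of those at marked gene ends and 27.5% of the internal windows without H3K4me3, against 56.5% of all listed windows. The SEPTIN9 start shown last but one and the PDE4B start are exceptions in either direction. Windows of 1 gene can overlap, so the counts of windows exceed the counts of separate sequences.

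Short motifs were counted on both strands of the 300 bases. GGGCGG, the core of the SP1 site, was in 77.0% of the windows in members, 76.2% of those at marked gene ends and 23.4% of internal windows without H3K4me3, against 45.0% of all listed windows. TATAAA was in 1.74%, 3.82% and 15.7%, against 11.5% of all. CCGGAAG, found in binding sites of ETS factors, was in 14.3%, 22.1% and 3.45%, against 10.25% of all, so the windows in members lay below those at marked gene ends. A match describes letters only, and GGGCGG and CCGGAAG each contain CG, so their counts are not independent of the CG content.

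Other marks over the members were then compared with all H3K4me3 regions and with the 11055 regions that differ only in lying within 2 kb of a gene end, called gene-end regions. Members inside genes carried H3K9ac and H3K4me2 less often than gene-end regions, and H3K79me2 and the H3K36me3/H4K16ac set more often. H3K9ac overlapped 1078 of 2688 members inside genes (40.1%, 38.3 to 42.0), 141 of 193 between genes (73.1%, 66.4 to 78.8) and 94.1% of gene-end regions (93.7 to 94.5), with 82.7% over all H3K4me3 regions. H3K4me2 overlapped 59.5% (57.7 to 61.4) inside genes, 76.2% (69.7 to 81.6) between genes and 98.5% at gene ends, with 90.6% over all. H3K79me2 overlapped 80.6% (79.04 to 82.03) inside genes, 37.3% (30.8 to 44.3) between genes and 60.2% at gene ends, with 63.1% over all. The H3K79me2 share inside genes was lower away from other H3K4me3 regions, a setting chosen after seeing the data. For the 1121 members inside genes with none within 3 kb it was 63.2% (60.4 to 66.0), near the share over all. Gene-end regions were not restricted in the same way. H3K36me3/H4K16ac overlapped 31.6% (29.9 to 33.4), 4.66% (2.47 to 8.62) and 5.63%, with 11.2% over all.

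H3K27ac and H3K4me1 ran in opposite directions between members inside genes and members between genes. H3K27ac overlapped 5.62% of members inside genes (4.81 to 6.55), 18.7% between genes (13.8 to 24.7) and 8.04% of gene-end regions, with 8.32% over all H3K4me3 regions. The H3K27ac set was thus sparse even at gene ends, where H3K9ac overlapped 94.1%. With depth unknown, a member without H3K27ac may have been missed by the calls. H3K4me1 overlapped 16.9% inside genes (15.6 to 18.4), 6.22% between genes (3.59 to 10.6) and 9.41% at gene ends, with 11.5% over all. This comparison depended on the neighbours and on what counts as overlap. Members with no other H3K4me3 region within 3 kb, a setting chosen after seeing the data, had 8.21% with H3K4me1 inside genes, and counting H3K4me1 within 1 kb gave 42.0% inside and 30.05% between genes. No other set was present at 1.56% of members inside genes, 18.1% between genes and 0.163% of gene-end regions, with 1.01% over all. Members between genes therefore held both the larger share with H3K27ac and the larger share with nothing else.

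Width, which the rule limits, was lower in members than in gene-end regions, and other marks moved with it. Members inside genes had a median width of 600 bp (quartiles 300 and 900), and 737 of them had the smallest width present, 300 bp. The median was 600 bp between genes and 900 bp at gene ends. The widest members were 2850 bp and the next region outside the limit was 3000 bp. The nearest members to a gene end lay at 2001 bp, the nearest region outside at 2000 bp, and the smallest H3K27me3 overlap that removed a region was 50 bp. Among regions of exactly 300 bp, H3K9ac overlapped 17.9% inside genes (15.3 to 20.8), 43.3% between genes (31.6 to 55.9) and 70.8% at gene ends (67.7 to 73.8). Among regions of 1650 to 2850 bp the shares were 77.5% (70.9 to 83.0), 100% of 14 and 99.9%. H3K79me2 over 300 bp regions was the other way round, with 77.5% inside genes, 23.3% between genes and 30.8% at gene ends. For H3K27ac the direction changed with width. Members inside genes had 2.99% against 7.15% at gene ends among regions of 300 bp, but 11.03% (8.32 to 14.5) against 6.54% (5.76 to 7.42) at 1050 to 1500 bp and 18.5% (13.5 to 24.9) against 14.3% (12.9 to 15.9) at 1650 to 2850 bp. At equal width, members inside genes had the lowest share with H3K9ac in all 6 width classes plotted.

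**Figure D1:**
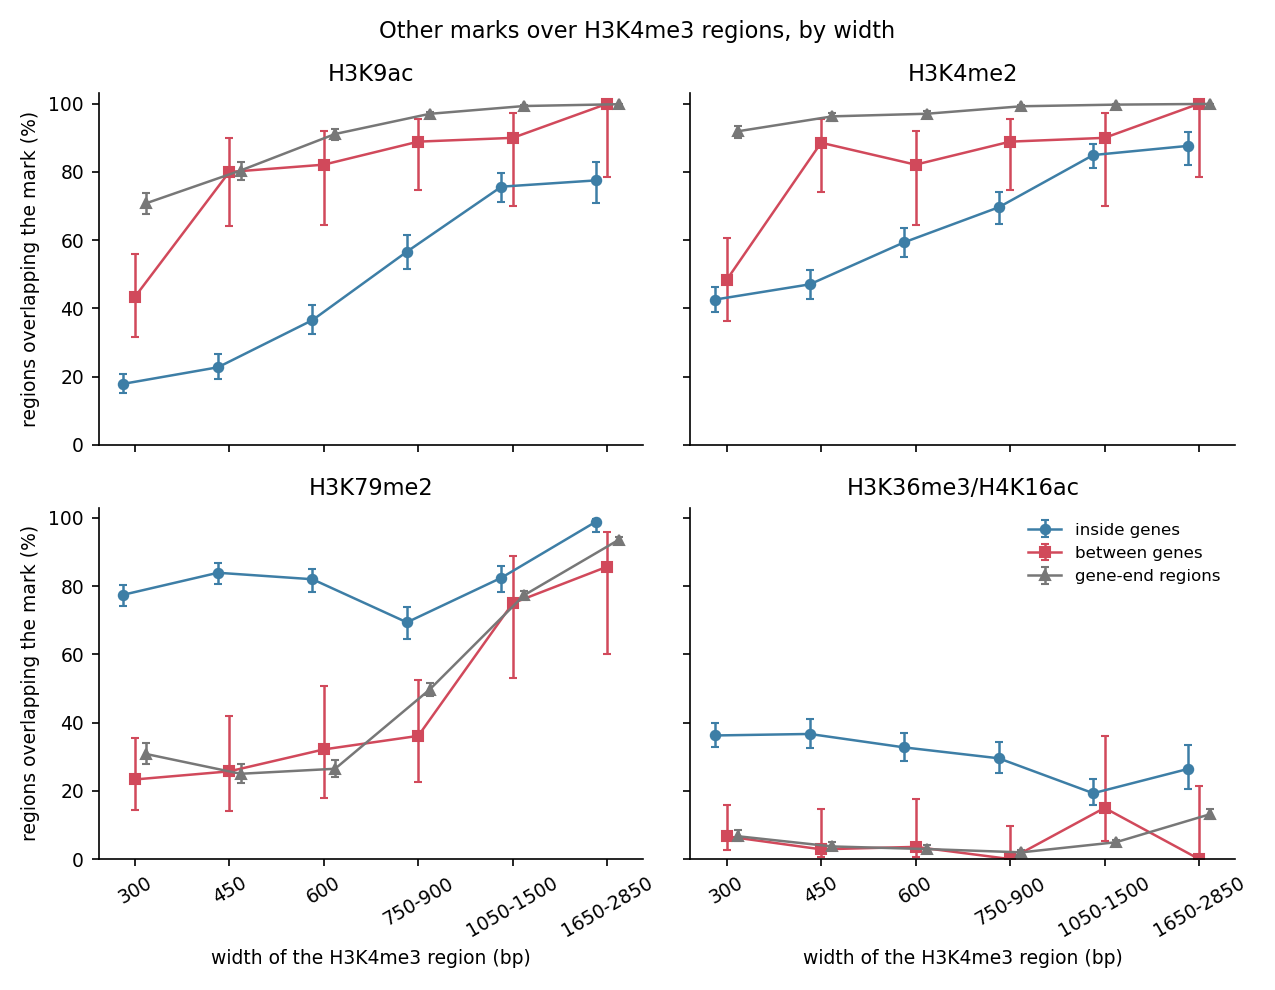
Share of H3K4me3 regions that overlap each of 4 other sets (y axis, percent) by width of the region (x axis, bp), for members inside genes, members between genes and gene-end regions. Bars are Wilson 95% intervals. For H3K9ac the members inside genes lie below the gene-end regions in every width class, from 17.9% against 70.8% at 300 bp, while for H3K79me2 they lie above them at 300 bp, at 77.5% against 30.8%.

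The members inside genes were split into 2 kinds by whether H3K9ac was called, a choice made after the shares were seen. Since the share with H3K9ac rose with width, the kinds also differ in width and are not matched for it. The 1078 with H3K9ac had a median width of 750 bp. Of these, 99.4% overlapped H3K4me2, 66.0% H3K79me2, 13.8% H3K27ac and 4.64% H3K36me3/H4K16ac. The 1610 without H3K9ac had a median width of 450 bp. Of these, 90.4% overlapped H3K79me2, 49.6% H3K36me3/H4K16ac, 32.9% H3K4me2 and 0.124% H3K27ac. The most frequent combination in all was H3K79me2 with H3K36me3/H4K16ac and nothing else, in 548 members (20.4%). H3K9ac with H3K4me2 and H3K79me2 was next, in 433 members (16.1%). The genes' allowed sequence is host sequence farther than 2 kb from any gene end and without H3K27me3. H3K79me2 covered 18.0% of its 139.1 Mb and 74.4% of the bases of members. H3K36me3/H4K16ac covered 38.8% of that sequence and 25.4% of the bases of members, and H3K9ac 1.62% and 47.6%. Of the 2222 members with 1 protein-coding host of known strand, 81.5% lay before its midpoint. These contrasts with the whole allowed sequence are therefore not matched for position.

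Members at listed internal starts were almost all of the first kind. Of the 1078 members with H3K9ac, 413 (38.3%, 35.5 to 41.3) overlapped a listed window, against 18 of the 1610 without (1.12%, 0.708 to 1.76). Seen from the starts, 413 of the 431 members at a listed start carried H3K9ac (95.8%, 93.5 to 97.3), 429 carried H3K4me2, 255 H3K79me2 (59.2%), 37 H3K27ac (8.59%) and 9 H3K36me3/H4K16ac (2.09%). The shares with H3K9ac and H3K4me2 lie close to those of gene-end regions given above. The 665 members with H3K9ac that overlapped no listed window were narrower, with a median of 600 bp against 1050 bp. They carried H3K27ac more often, in 16.8% (14.2 to 19.9) against 8.96% (6.57 to 12.1), and H3K4me1 more often, in 21.8% (18.8 to 25.1) against 7.02% (4.93 to 9.90). The promoter table is not complete, so the 665 are not shown to lie away from every start.

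The widest members at listed internal starts, named here after their values were seen, belonged to genes of several functions. Members of 2850 bp lay at starts in BRD2, a bromodomain reader of acetylated histones, KLF16, a zinc finger factor, SEPTIN9, and SLC3A2, the heavy chain of amino acid transporters. Members of 2700 bp lay at starts in CUL4B, a ubiquitin ligase scaffold, and PSMA6, a proteasome subunit. At 2550 bp were, among others, HMGB1, a chromatin protein, and PRKAR1A, a regulatory subunit of protein kinase A with 4 listed windows in its member. STAT5B followed with 2400 bp, all of it in H3K9ac, with 1800 bp in H3K4me2 and 1650 bp in H3K79me2. All these members overlapped H3K9ac, H3K4me2 and H3K79me2, and those of SLC3A2 and CUL4B also H3K27ac, over 600 bp each.

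Flanking marks were read in the direction of the host for the 2222 members with 1 protein-coding host whose strand the promoter table gives. Around the 905 of these with H3K9ac, H3K79me2 covered 31.1% of the sequence 1 kb before the centre and 65.9% 1 kb after it. H3K36me3/H4K16ac covered 0.619% and 11.3% at the same places, and 37.2% nearly 5 kb after the centre. H3K4me1 dipped at the centre, with 7.01% in the bin just before it, against 15.9% and 23.1% about 1 kb to either side. Around the 1317 without H3K9ac, H3K79me2 lay level, at 90.02% and 89.42%, and H3K9ac lay mainly on the side of the host's 5′ end, with 26.8% nearly 5 kb before the centre and 1.57% as far after it.

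**Figure D2:**
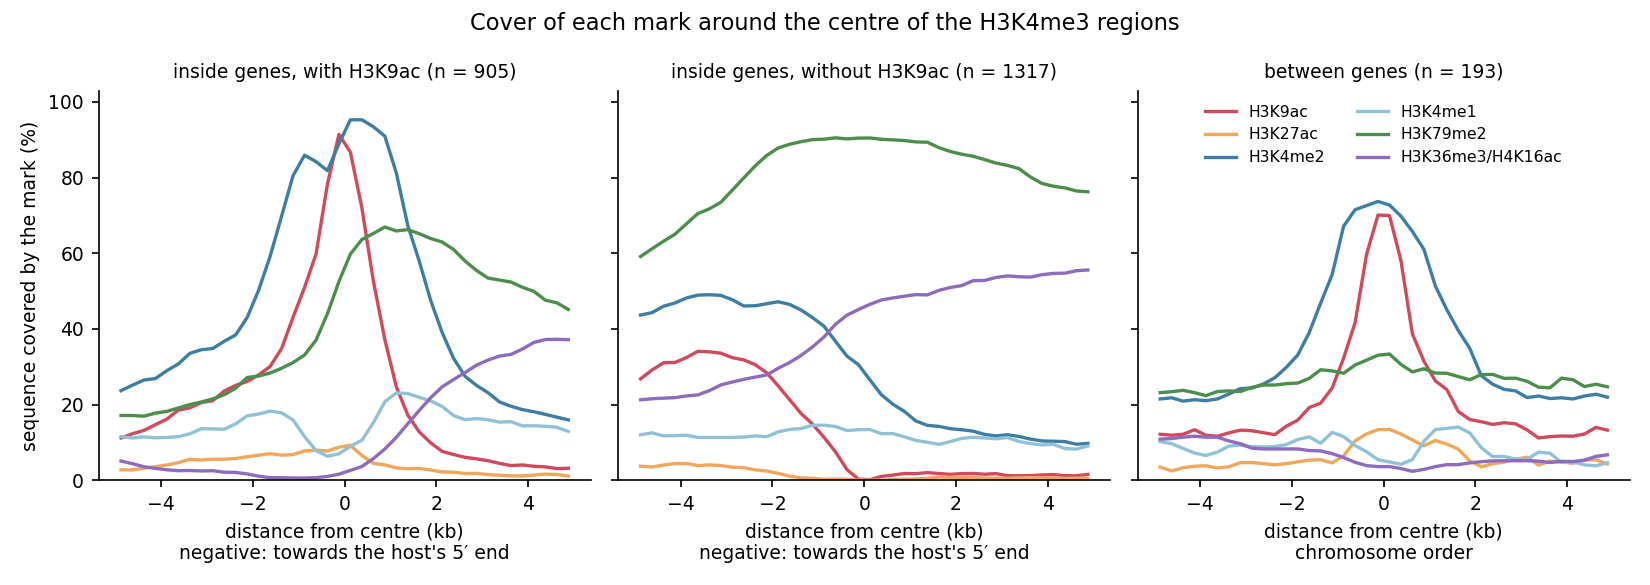
Percent of sequence covered by each set (y axis) in 250 bp bins up to 5 kb from the centre of the members (x axis, kb), for members inside genes with and without H3K9ac, in the direction of the host, and for members between genes, in chromosome order. With H3K9ac, H3K79me2 steps up across the centre from 31.1% to 65.9% within about 1 kb of either side. Without it H3K79me2 stays near 90% throughout that stretch.

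The step was also present where the host's own start had no H3K4me3. Among the 413 members with H3K9ac in hosts without H3K4me3 at the start, H3K79me2 covered on average 9.52% of the 5 kb before and 46.4% of the 5 kb after. More of it lay after the member in 271 cases, more before it in 18, and the sides were equal in 124. With a marked host start the averages were 34.7% and 63.4% over 492 members. For the 1181 members without H3K9ac in hosts with a marked start they were 78.8% and 85.1%.

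Host ends without H3K4me3 were more frequent among members with H3K9ac. A host was called unmarked when no H3K4me3 region other than a member lay within 1 kb of either end of any gene that holds the member. This was so for 626 of the 2688 members inside genes (23.3%, 21.7 to 24.9). It held for 43.6% of members with H3K9ac (40.7 to 46.6), 9.69% of those without (8.34 to 11.2) and 222 of the 431 at a listed start (51.5%). Members in unmarked hosts were wider, with a median of 750 bp against 450 bp, and 75.1% (71.6 to 78.3) carried H3K9ac against 29.5% (27.6 to 31.5) in marked hosts. Over all 19974 protein-coding genes, 51.3% had H3K4me3 other than a member at an end, against 73.5% of the 1643 that host a member.

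Host genes were long and well covered by H3K79me2. A member lay in 8.23% of all protein-coding genes, rising with length from 0.884% of genes under 10 kb to 15.7% of those over 100 kb. The median length was 60.8 kb for hosts and 24.2 kb for all protein-coding genes. Since a longer gene has more sequence beyond 2 kb from its ends, the rule itself favours length. The comparison was narrowed to genes with a marked end and a span of 20 kb or more. There the 1032 hosts had a median of 26.8% of their span in H3K79me2 and the 5344 others 4.32%. For H3K36me3/H4K16ac these medians were 61.8% and 42.9%. Hosts were still the longer genes in this comparison, with a median of 73.5 kb against 52.4 kb.

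Position along the host differed between the kinds. The median member lay 9.58 kb from the host's 5′ end, at 20.3% of its length, and 81.5% lay before its midpoint. With H3K9ac the median was 12.9 kb and without it 8.32 kb. The share with H3K9ac was 36.7% at 2 to 5 kb from the 5′ end, 32.4% at 5 to 10 kb and 58.7% beyond 100 kb. H3K79me2 went from 89.2% at 2 to 5 kb to 64.0% beyond 100 kb, and H3K4me2 was lowest at 5 to 10 kb, with 49.8%. Of the 2688 members inside genes, 847 (31.5%) had an H3K4me3 region that is no member within 3 kb. Of the 1121 with no other H3K4me3 region within 3 kb, 50.2% (47.3 to 53.1) carried H3K9ac and 63.2% (60.4 to 66.0) H3K79me2.

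**Figure D3:**
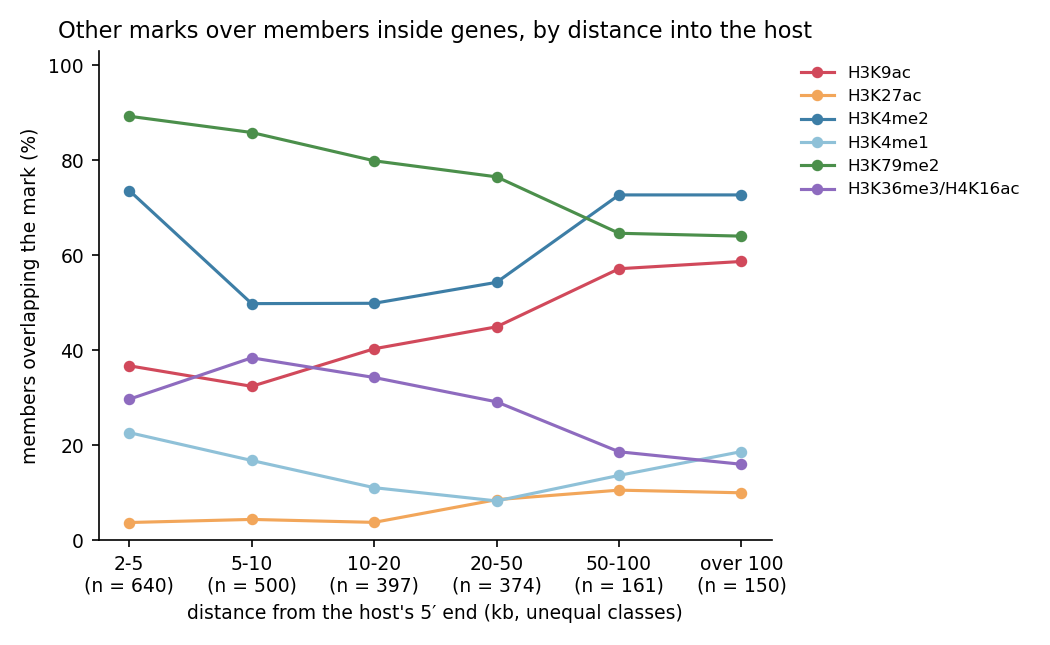
Share of members inside genes that overlap each other set (y axis, percent) by distance of the member's centre from the host's 5′ end (x axis, kb in unequal classes, with the number of members). H3K79me2 goes from 89.2% at 2 to 5 kb to 64.0% beyond 100 kb, and H3K9ac from 36.7% to 58.7%.

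Some hosts held many members. Of 1643 protein-coding hosts, 1122 held 1 member, 288 held 2 and 61 held at least 5. MSN held most, with 17. SAMSN1, an adaptor protein of blood cells, and ETV6, an ETS-family repressor rearranged in leukaemias, held 13 each. ELF1, another ETS factor, MSL2, a subunit of a histone acetyltransferase complex, and TAOK3, a protein kinase, held 11 each. ERG, an ETS factor of blood stem cells, DYRK1A, a protein kinase, and the noncoding gene LOC124905053, which overlaps SAMSN1, held 10 each. The last host within the first 10, ZMYND8, a reader of histone marks, held 9, as did ANKRD11, which tied with it and regulates chromatin. H3K9ac was present at 7 of 13 members in SAMSN1 and 6 of 10 in ERG, but at 0 of 10 in DYRK1A, 0 of 9 in ZMYND8 and 0 of 9 in ANKRD11. In ZMYND8, 7 of 9 members overlapped H3K36me3/H4K16ac.

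In MSN, 15 of the 17 members lay in a run of 47.7 kb, chrX:65667601-65715300, that began at the internal start whose sequence is given above. The first region of that run was 2550 bp wide, with 2400 bp in H3K9ac and 1200 bp in H3K27ac. All 17 members overlapped H3K79me2, and 3 overlapped H3K9ac. The 2 members before the run, at 17.0 and 24.3 kb from the gene's 5′ end, were 300 bp wide each and had no H3K9ac. The host's own start carried H3K4me3 as well.

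ERG had no H3K4me3 at either end. Its 10 members spanned chr21:38462251-38498400, from 164 to 199 kb into the gene. The widest, 1950 bp, came first in the direction of the gene and lay in H3K9ac and H3K79me2 throughout, with 1800 bp in H3K27ac. It began next to a pair of listed starts 163 kb into the gene, whose windows had 4 CG dinucleotides each and overlapped H3K9ac but not H3K4me3. The following members were 1050 and 1050 bp wide, both in H3K9ac throughout, and the last, 199 kb into the gene, was 300 bp wide and overlapped H3K79me2 only.

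ETV6 was marked at its own start. It held 8 of its 13 members within 41 kb of that start, where the members at 3.53 and 4.43 kb overlapped H3K9ac and those at 6.15 to 40.6 kb did not. A further 5 lay 150 to 165 kb into the gene. Among those, the member at 163 kb was 600 bp wide and lay in H3K9ac and H3K27ac throughout. SEPTIN9, with no H3K4me3 at either end, held a member of 2850 bp at its start at 38.0 kb and one of 300 bp centred 41.4 kb into the gene, at no listed start. Its other 9 listed starts had no member.

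**Figure D4:**
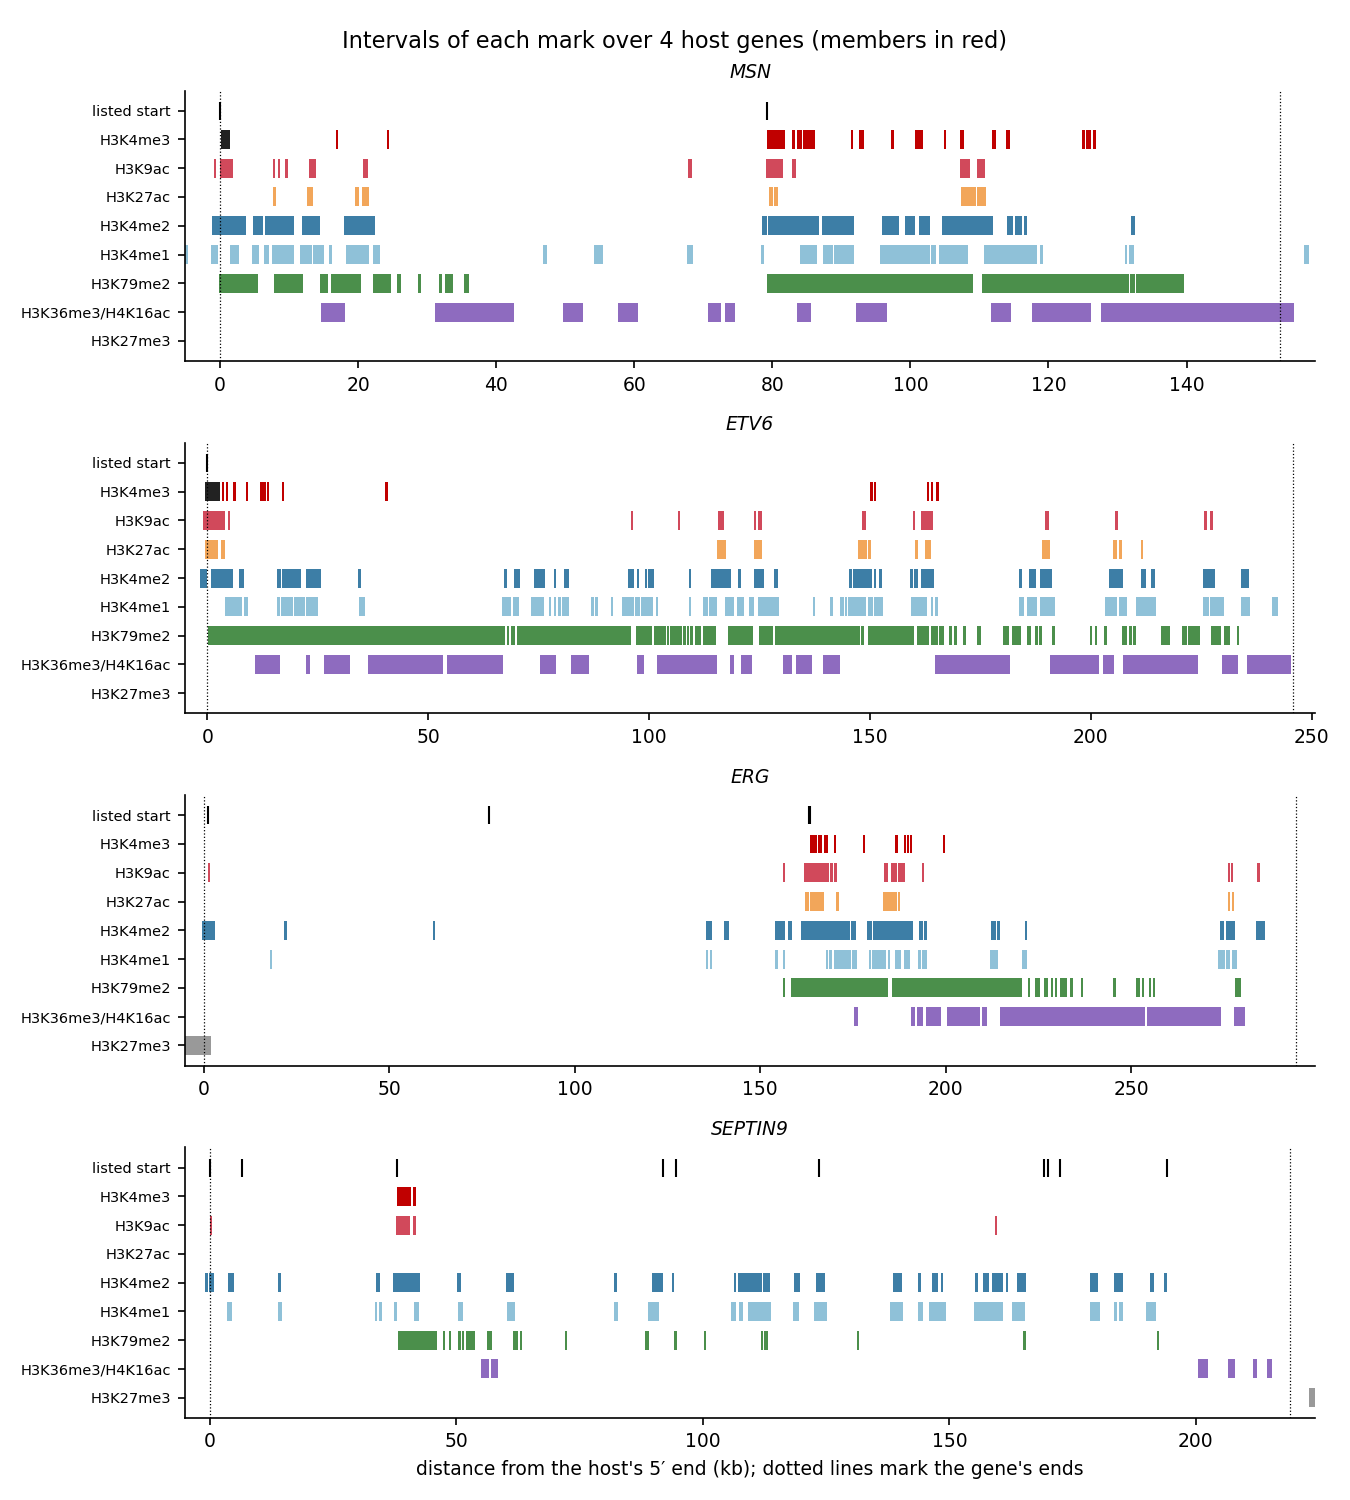
Intervals of each set over MSN, ETV6, ERG and SEPTIN9 by distance from the host's 5′ end (x axis, kb), with members in red, other H3K4me3 regions in black and listed starts as ticks. In MSN and ERG a run of members begins at or beside an internal listed start, 79.3 and 163 kb into the gene, together with a long H3K79me2 stretch.

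The gene lists were grouped by role, and 8.23% of all protein-coding genes host a member. Among haematopoietic transcription factors, 16 of 28 hosted 48 members, of which 23 overlapped H3K9ac, 12 H3K27ac and 47 H3K79me2. Over all members inside genes these shares were 40.1%, 5.62% and 80.6%. ETV6 held 13 and ERG 10 of the 48 members, and members of 1 gene are not independent, so a few genes weigh on these counts. LMO2, a bridging factor of blood stem cells, had no H3K4me3 at its ends and 4 members of 300 to 1950 bp, all with H3K9ac, the widest over 1800 bp. GATA2, a zinc finger factor of progenitors, had 1 member of 1650 bp, in H3K9ac throughout and in H3K27ac over 1050 bp. TAL1 and MYB, factors of blood progenitors, had their widest members at 1350 and 1050 bp, both in H3K9ac throughout. RUNX1, the core binding factor subunit, had 4 members of 300 to 600 bp, none with H3K9ac and all with H3K79me2. BCL11A, the repressor of fetal globin, had 2 members of 450 bp with H3K79me2 and without H3K9ac.

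Among genes known for internal promoters, 19 of 44 hosted 49 members. Of these members 36 overlapped H3K9ac, beside 40.1% of all members inside genes, and 37 had a host without H3K4me3 at its ends, beside 23.3%. The genes are long, with a median of 196 kb, and 15.7% of all protein-coding genes over 100 kb host a member. The list includes several of the factors above, and ERG alone held 10 of the 49 members. PDE4D, a cAMP phosphodiesterase like PDE4B, had a member of 1350 bp, 754 kb into the gene, in H3K9ac throughout and without H3K79me2. GNAS, which encodes the stimulatory G protein alpha subunit, had members of 1350 and 450 bp at 52.1 and 53.8 kb. MACF1, a cytoskeletal linker, had 5 members between 21.7 and 325 kb, 4 of them with H3K9ac. DMD, the dystrophin gene, had 1 member of 750 bp 2073 kb into the gene, with H3K9ac and without H3K79me2.

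Among histone-modifying enzymes, with a median length of 72.8 kb, 16 of 32 genes hosted 36 members. Of these, 34 overlapped H3K79me2 and 4 H3K9ac, beside 80.6% and 40.1% of all members inside genes. H3K27ac overlapped 0 of the 36, beside 5.62%, which is too few members to tell apart from that share. EP300, an acetyltransferase, had 5 members within 9.81 kb of its start, and ASH1L, a methyltransferase, had 4 of 450 to 900 bp. KDM6A, an H3K27 demethylase, had 4 of 450 to 600 bp. None of these 13 members overlapped H3K9ac. The 4 with H3K9ac were in KDM2A and KDM2B, and 2 of them lay at listed internal starts.

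In the BCR-ABL and JAK-STAT list, 9 of 26 genes hosted 14 members, all with H3K79me2 and 8 with H3K9ac. Over all members inside genes these shares were 80.6% and 40.1%. SOS1, a RAS exchange factor, had a member of 2250 bp at an internal start 3.82 kb from its outer end. JAK1, a cytokine receptor kinase, had one of 1050 bp, 102 kb from its 5′ end. SOCS2, a feedback inhibitor, had 3, all with H3K9ac. BCR itself had 1 member of 300 bp, 3.34 kb from its start, in H3K9ac, H3K4me2 and H3K79me2 throughout. The BCR-ABL1 fusion cannot be read from intervals on the reference genome.

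Surface and signalling genes of this lineage gave 7 hosts of 28, with 8 members. CD33, a myeloid surface lectin, had no H3K4me3 at its ends and a member of 750 bp, 14.6 kb from its start, with 600 bp in H3K27ac. CD34, the progenitor marker, had one of 600 bp without H3K9ac. Housekeeping genes gave 6 hosts of 26, whose 8 members all overlapped H3K79me2, beside 80.6% of all members inside genes. Gene ends were also read for these lists. The lists were written with earlier results of these data known, so they are no independent check of the line's label. An end with H3K4me3 was present in 22 of 28 haematopoietic factors, 17 of 28 lineage surface genes and 25 of 26 housekeeping genes. Over all protein-coding genes the share was 51.3%. The surface genes thus lay near that share. H3K4me3 lay at an end of 2 of 28 granulocyte and monocyte genes, 1 of 28 erythroid and megakaryocyte genes, 3 of 32 lymphocyte genes, 2 of 28 neuronal genes and 4 of 28 liver genes. The granulocyte, erythroid and neuronal lists gave 1 host each, VCAN, ITGA2B and SYP, with 1 member each, and the liver list gave 0. The members of ITGA2B and SYP overlapped H3K9ac and that of VCAN did not.

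Another H3K4me3 region lay within 1 kb of 34.5% of members, 35.5% of gene-end regions and 34.6% of all H3K4me3 regions. Within 3 kb the shares were 56.4% of members and 40.5% of gene-end regions. Runs were formed for members only, so their number has no counterpart for other regions. Joined over the gap limit commonly used to stitch enhancers, the 2881 members formed 1912 runs, of which 1391 were single members and 58 held at least 5. After the run in MSN, the largest lay between genes on chromosome 4 with 13 members. SAMSN1, MSL2 and ERG followed with 12, 11 and 10. All members of these 5 runs overlapped H3K79me2, beside 77.7% of all members.

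The run between genes at chr4:116311501-116334150 spanned 22.7 kb, and the nearest protein-coding gene, TRAM1L1, lay 751 kb from its widest member. The noncoding genes LOC105377383 and LOC105377384 lay to either side, with MTRNR2L13 and MIR1973 between LOC105377383 and the run. The 5 members at lower coordinates were 300 to 1200 bp wide and overlapped H3K79me2 and H3K36me3/H4K16ac but neither H3K9ac nor H3K4me2. The 8 members at higher coordinates were 300 to 1950 bp wide, and each lay in H3K9ac, H3K4me2 and H3K79me2 throughout. Of these, the members of 1500 and 1950 bp also overlapped H3K27ac, over 900 and 1200 bp. Within 50 kb of the run on both sides, H3K79me2 covered 82.2 kb, H3K36me3/H4K16ac 57.5 kb and H3K27me3 0 kb of 122.7 kb. No annotated gene lay over the run. Further H3K4me3 regions, members among them, lay over LOC105377384, the first 33.0 kb from the start of the run. H3K9ac, H3K4me2 and H3K79me2 continued from the run to that gene with gaps, so the run is part of a longer marked stretch.

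The next largest run between genes, named after its values were seen, held 9 members at chr12:9768451-9797100. It lay between CD69, an early activation antigen of leukocytes, and KLRF1, a lectin-like receptor of natural killer cells. An H3K4me3 region that is no member lay over CD69, and another ended 5.7 kb before the run. H3K79me2 reached from CD69 into the run with a small gap. All 9 overlapped H3K9ac, H3K4me2 and H3K79me2, 4 overlapped H3K27ac and 0 H3K36me3/H4K16ac. The widest was 2700 bp, lay 18.2 kb from CD69 and was in H3K9ac and H3K79me2 throughout, with 1500 bp in H3K27ac. The end of the run nearest KLRF1 was a member of 2250 bp, 2.95 kb from that gene.

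**Figure D5:**
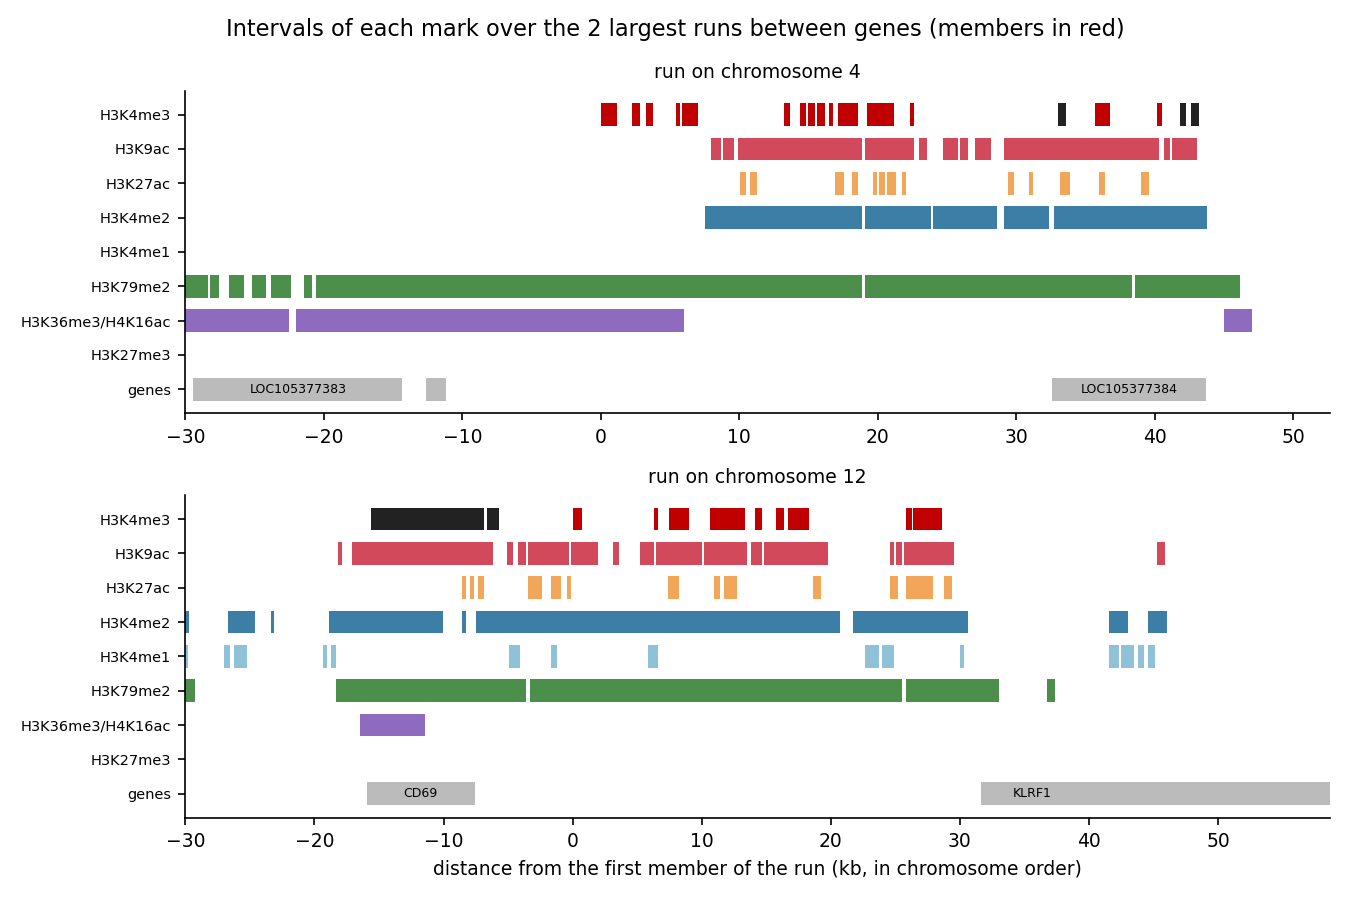
Intervals of each set over the 2 largest runs between genes by distance from the first member of the run (x axis, kb, chromosome order), with members in red, other H3K4me3 regions in black and annotated genes in grey (names given for those over 5 kb). On chromosome 4, members at lower coordinates lie in H3K79me2 and H3K36me3/H4K16ac and those at higher coordinates in H3K9ac, while on chromosome 12 all 9 members lie in H3K9ac.

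Other members between genes with both acetylation marks were near genes of several kinds. The widest after those near CD69 and KLRF1 was 2250 bp at chrX:114056851-114059100, whose nearest protein-coding gene, HTR2C, lay 525 kb away. One of 2100 bp lay 2.42 kb from CDKN2C, an inhibitor of CDK4 and CDK6. Another of 1800 bp lay 13.7 kb from TEF, a bZIP factor, and 2 of 1650 bp lay 10.7 and 13.6 kb from CTSE, a cathepsin. On chromosome 8, members of 2100 and 1800 bp lay between EIF4EBP1, a repressor of translation, and ASH2L, a subunit of the H3K4 methyltransferase complexes. In all, 35 of the 193 members between genes overlapped no other set, and their median width was 300 bp. The widest of these was 900 bp, at chr21:8233951-8234850. Of the 5 members farthest from any gene end, at 202 to 1487 kb, 4 overlapped no other set. The exception was chr3:93470101-93471000, 900 bp wide, in H3K9ac, H3K27ac, H3K4me1 and H3K79me2 throughout and without H3K4me2. Whether reads can be placed uniquely at these regions far from genes was not tested, so some of the called intervals may reflect mapping.

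Inside genes, the widest members with both acetylation marks were those of SLC3A2 and CUL4B, followed by RHEX, a regulator of erythroid expansion, and MSN at 2550 bp. In RHEX H3K9ac and H3K27ac both covered all 2550 bp. LIN28B, which blocks let-7 maturation, had a member of 2400 bp 21.9 kb from its 5′ end with no H3K4me3 at its ends. CELF2, an RNA-binding protein, had one of 2250 bp 704 kb into the gene, beside listed starts, and another of 750 bp at a CG-rich start at 556 kb. The 42 members inside genes with no other set were at most 600 bp wide. The widest lay in ZFAT and NUBPL at 600 bp and in PTPN4, LOC101927960 and RICTOR at 450 bp.

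KBM-7 is known to keep 2 copies of chromosome 8 and of part of chromosome 15 (here 61 to 90 Mb), with 1 copy of the other chromosomes. The 156 members inside genes there were wider, with a median of 1200 bp against 600 bp elsewhere, and 2 of them had the smallest width. H3K4me1 overlapped 45.5% of them (37.9 to 53.3) against 15.2% elsewhere (13.8 to 16.6), and H3K36me3/H4K16ac 67.3% (59.6 to 74.2) against 29.4% (27.6 to 31.2). H3K9ac overlapped 28.2% (21.7 to 35.7) against 40.8% (38.9 to 42.8). Gene-end regions differed in the same direction in width (1500 against 900 bp), H3K4me1 (68.1% against 7.28%) and H3K36me3/H4K16ac (25.1% against 4.92%). For H3K9ac they did not, with 96.4% (94.0 to 97.8) against 94.05% (93.6 to 94.5). H3K27ac overlapped 3.21% against 5.77% of members inside genes, but 11.9% against 7.90% of gene-end regions. The part of copy number in these differences was not tested. In hosts unmarked at both ends, the most other sets on a member was 5, a tie that was broken by width, and members in the 2-copy stretches are wider. The widest with 5 sets lay in SORBS3, ELP3, TACC1 and CCDC26 on chromosome 8 and in TSC22D3. Members with 5 sets outside the 2-copy stretches, listed after the tie was seen, also lay in HDAC7, ARAP1, ERG, PHF19 and CELF2, among others. That of TSC22D3, a glucocorticoid-induced leucine zipper protein on the X chromosome, was 1800 bp wide with H3K9ac and H3K4me2 throughout.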

How the data were processed

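Per the submitters' processing notes, the authors used cutadapt, Bowtie2 and MACS on GRCh38, with versions and settings not given in the sources used here. The authors deposited 1 list of called intervals, named by mark, with no count or score. H3K27me3 starts are counted from 0 and those of the other marks from 1, and all were put on 1 scale. A further 71741 intervals under 1 name that matches no sample were not used, nor were chromosomes Y and M. Touching intervals of a mark were joined, and overlap meant at least 1 bp. Gene spans and promoter sequences came from RefSeq (GRCh38.p14), and strands from its promoter table, which is incomplete. The members, gene lists and tests were chosen with earlier results of these data known. Named genes are the widest members with both acetylation marks or none, hosts and runs with most members, hosting list genes, members nearest each limit, those farthest from genes, and those with most sets in unmarked hosts. No test was made, since each mark has 1 library and no replicate; Wilson 95% intervals are of counts. Python 3.11.15 was used with numpy 2.4.6, pandas 2.3.3 and scipy 1.17.1. Overlap and distance were tested on 2400 simulated regions, and all 2400 were recovered. Some hosting list genes are not reported here.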

Additional observations from a re-analysis of the deposited data

How the results depend on the processing

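No paired analysis was possible because each mark has 1 library and no replicate number. Of 225 values under other settings, 165 stayed within the interval of the reported share or within 1.5 times the count, and 60 moved. None moved without the width limit or with a limit of 2000 bp.

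Requiring 5 kb from gene ends left 1726 members, 1582 inside genes (91.66%). Of those inside, H3K4me2 overlapped 52.91%, H3K4me1 13.46%, H3K79me2 76.86% and no other set 2.276%. With 1 kb, H3K9ac overlapped 45.65%, H3K4me2 66.3% and H3K36me3/H4K16ac 28.0% inside genes. With ends of protein-coding genes only, the shares inside genes were 49.15% with H3K9ac, 7.334% with H3K27ac, 66.15% with H3K4me2, 75.21% with H3K79me2 and 27.09% with H3K36me3/H4K16ac. Between genes they were 82.42% for H3K4me2 and 12.82% for no other set. Allowing H3K27me3 gave 92.32% inside genes, where H3K79me2 overlapped 78.65% and no other set 2.404%. Between genes it gave 63.36% with H3K9ac, 68.53% with H3K4me2 and 26.72% with no other set.

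H3K9ac inside genes was 42.02% without joining and 38.25% with joining over gaps up to 500 bp, which put H3K4me2 at 55.84%. Asking for 50% of the region to be covered gave 38.1% for H3K9ac, 3.832% for H3K27ac, 56.51% for H3K4me2, 11.87% for H3K4me1, 77.16% for H3K79me2 and 29.24% for H3K36me3/H4K16ac inside genes. Counting a mark within 1 kb gave 51.45%, 9.263%, 70.87%, 42.0%, 85.45% and 43.27% in that order, with 30.05% for H3K4me1 and 9.326% for H3K36me3/H4K16ac between genes. At or above the median width, the shares inside genes were 57.6% for H3K9ac, 8.189% for H3K27ac, 72.59% for H3K4me2, 18.6% for H3K4me1 and 27.41% for H3K36me3/H4K16ac. Between genes they were 88.78% for H3K9ac, 27.55% for H3K27ac, 88.78% for H3K4me2 and 50% for H3K79me2.

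Without chromosome 8 and part of 15, H3K4me1 was 15.17% and H3K36me3/H4K16ac 29.38% inside genes. A 2.5 kb window at gene ends put members with unmarked hosts at 21.13%. In settings chosen after seeing the data, members with no other H3K4me3 region within 3 kb had 50.22% H3K9ac, 56.38% H3K4me2, 8.207% H3K4me1, 63.25% H3K79me2 and 28.37% H3K36me3/H4K16ac inside genes. Between genes they had 11.76% H3K27ac and 19.12% H3K79me2. Counting a listed start within 1 kb, also chosen after seeing the data, gave 22.43%. The cause of these shifts was not tested beyond what each setting changes. Sequencing depth is unknown, so a mark that was not called may have been missed.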

Other observations

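The 138 regions left out for H3K27me3 were narrower than the members, with a median of 375 bp. H3K9ac overlapped 32 of them (23.2%, Wilson 95% interval 16.9 to 30.9), H3K79me2 26 (18.8%, 13.2 to 26.2) and H3K4me1 2 (1.45%, 0.398 to 5.13). H3K27ac overlapped 0 of 138, with an upper limit of 2.71%. No set other than H3K27me3 lay over 52 of them (37.7%, 30.03 to 46.0).

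The share of H3K4me3 regions that are members ran from 14.65% on chromosome 16 to 35.45% on chromosome 21, which holds SAMSN1, ERG, DYRK1A and RUNX1 with 13, 10, 10 and 4 members.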
